A study of Mus musculus with 15 samples.

Results

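The genes of the matricellular and provisional matrix described here were followed by RNA sequencing in the embryonic mouse lung. There are 10 of them: Postn, Tnc, Sparc, Fn1, Vcan, Thbs1, Thbs2, Spon1, Spon2 and Spp1. They were chosen by symbol, with their fold changes between the pressures and stages of these same libraries already known, and all 10 were found among the 23420 genes of the count tables. Counts and p-values below therefore describe these genes and are not independent evidence that such genes respond as a class.

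Lungs explanted at E12.5 (the E stands for embryonic day) were kept for 48 hours under high pressure, 3 libraries, or under low pressure, 3 libraries. Fresh lungs were taken from embryos at 3 stages, E12.5, E13.5 and E14.5, with 3 libraries each. Every animal was a wild-type CD1 mouse. Each library held RNA pooled from 3 lungs at high pressure, E13.5 and E14.5, but from 6 lungs at low pressure and E12.5. Pool size therefore moved with the pressure and with the E12.5 stage and cannot be told apart from them. The labels give no pressure values and do not say whether the pools were separate litters. The p-values therefore set group differences against the spread between these pools only.

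Matricellular proteins are secreted into the matrix and bind cell receptors, growth factors and structural fibres, but do not themselves form the main load-bearing fibres. Periostin (Postn), tenascin C (Tnc), SPARC, the thrombospondins (Thbs1, Thbs2), the spondins (Spon1, Spon2) and osteopontin (Spp1) are of this kind. Fibronectin (Fn1) and versican (Vcan) are components of the provisional matrix, the loose and hydrated matrix of growing and healing tissue. In the embryonic lung these genes are known chiefly from the mesenchyme around the branching epithelium. On mm10, by the GENCODE annotation, Spon2 lies at chr5:33198184-33218455 (minus strand) and Spon1 at chr7:113765998-114043370 (plus). Thbs2 lies at chr17:14665500-14694235 (minus) and Thbs1 at chr2:118111876-118127133 (plus). Fn1 lies at chr1:71585520-71653200 (minus), Tnc at chr4:63959785-64047015 (minus) and Spp1 at chr5:104435118-104441050 (plus). All 10 are protein-coding genes, each counted as 1 row of the tables.

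Windows from 250 bases before to 50 bases from the start site were held by RefSeq (assembly GRCm38.p6) for 6 of the 10 genes. The 4 printed here are those whose gene differed between the pressures. Postn, Thbs2 and Sparc were higher at high pressure, and Vcan was lower. Capitals mark, on either strand, the letters of a TATA box (TATAAA), of a SMAD element (CAGAC) and of a GC box (GGGCGG). Each window is printed in the direction of transcription, 5′ to 3′.
Postn, chr3:54360857-54361156, plus strand: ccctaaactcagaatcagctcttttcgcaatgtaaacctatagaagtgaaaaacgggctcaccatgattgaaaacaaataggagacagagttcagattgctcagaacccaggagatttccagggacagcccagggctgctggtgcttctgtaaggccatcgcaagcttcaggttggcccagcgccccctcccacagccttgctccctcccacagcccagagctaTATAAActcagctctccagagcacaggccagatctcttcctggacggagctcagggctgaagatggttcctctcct
Thbs2, chr17:14694213-14694512, minus strand: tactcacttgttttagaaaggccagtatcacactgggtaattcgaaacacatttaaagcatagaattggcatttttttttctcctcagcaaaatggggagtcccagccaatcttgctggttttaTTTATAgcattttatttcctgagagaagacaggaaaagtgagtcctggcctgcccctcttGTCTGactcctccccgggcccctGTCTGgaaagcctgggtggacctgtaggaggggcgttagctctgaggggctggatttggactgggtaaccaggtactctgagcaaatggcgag
Sparc, chr11:55420031-55420330, minus strand: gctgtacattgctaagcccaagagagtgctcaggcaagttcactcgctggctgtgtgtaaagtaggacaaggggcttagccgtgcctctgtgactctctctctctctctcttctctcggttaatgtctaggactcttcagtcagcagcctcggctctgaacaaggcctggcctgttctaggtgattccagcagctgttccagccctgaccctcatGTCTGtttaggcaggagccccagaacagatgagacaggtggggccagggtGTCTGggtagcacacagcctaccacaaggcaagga
Vcan, chr13:89742463-89742762, minus strand: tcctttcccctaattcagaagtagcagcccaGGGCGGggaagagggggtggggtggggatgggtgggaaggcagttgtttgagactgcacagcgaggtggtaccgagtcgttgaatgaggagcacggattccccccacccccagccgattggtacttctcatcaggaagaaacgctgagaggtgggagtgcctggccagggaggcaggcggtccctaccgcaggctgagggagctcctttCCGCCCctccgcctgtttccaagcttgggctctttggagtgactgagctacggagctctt
The Postn window held TATAAA at position -26 from the start site, and the Thbs2 window held it on the other strand, as TTTATA, at -126. TATAAA on either strand was present in 13.6% of the 32851 RefSeq windows of this length, and in 4 of the 6 of these genes (Postn, Thbs2, Tnc and Spp1). CAGAC, read as GTCTG on the other strand, lay at -66 and -43 in Thbs2 and at -35 and 16 in Sparc. CAGAC occurs in 49.6% of all windows. Vcan carried GGGCGG at -219 and its reverse complement, CCGCCC, at -10, letters found in 35.7% of windows. GGAATG, the core of a TEAD site, and TGANTCA, an AP-1 site, were in none of the 6 windows, and in 14.7% and 7.81% of all windows. The Sparc window belongs to a RefSeq start that lies 3103 bases inside the GENCODE gene, and the other 3 lie within 27 bases of the GENCODE start. A match is a run of letters and was not tested as a binding site.

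Total counts were 40167255 to 44341263 per library at high pressure, 31843739 to 38288861 at low pressure and 18837343 to 21955244 in fresh lungs. Some libraries stood apart. Ribosomal protein genes took 3.59%, 4.01% and 4.36% of the counts in the replicate 1 libraries of E12.5, E13.5 and E14.5, and 1.77% to 2.24% in the other fresh libraries. They took 3.06% to 3.36% at high pressure and 1.93% to 2.20% at low pressure. Low-pressure replicate 3 had counts for 14637 genes, against 16509 to 16726 in the other cultured libraries. The part of these differences in the results was not tested. Fold changes without those libraries are given where a result rests on them, but likenesses between genes were not computed without them.

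Levels are given as CPM, the counts of a gene scaled to a common library total by TMM factors. The 10 genes together took 0.548% ± 0.0238 of the counts at high pressure and 0.511% ± 0.0666 at low pressure (SD, n = 3 each). Their share in fresh lungs was 0.270% ± 0.0404 (E12.5), 0.260% ± 0.00808 (E13.5) and 0.322% ± 0.0376 (E14.5). Per kilobase of exon, Thbs1 and Sparc ranked first and second in every group, or second and first. At E12.5 they averaged 171 and 165 CPM per kilobase, Vcan 41.7, Fn1 22.3, and Spp1 only 0.694. In all 3 fresh stages Spon2 and Spp1 were the lowest. At high pressure Spon1 was lowest, at 0.783 CPM per kilobase, followed by Spon2 at 13.6. At low pressure Spon1 and Spon2 were lowest, at 1.62 and 2.11 CPM per kilobase.

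**Figure D1:**
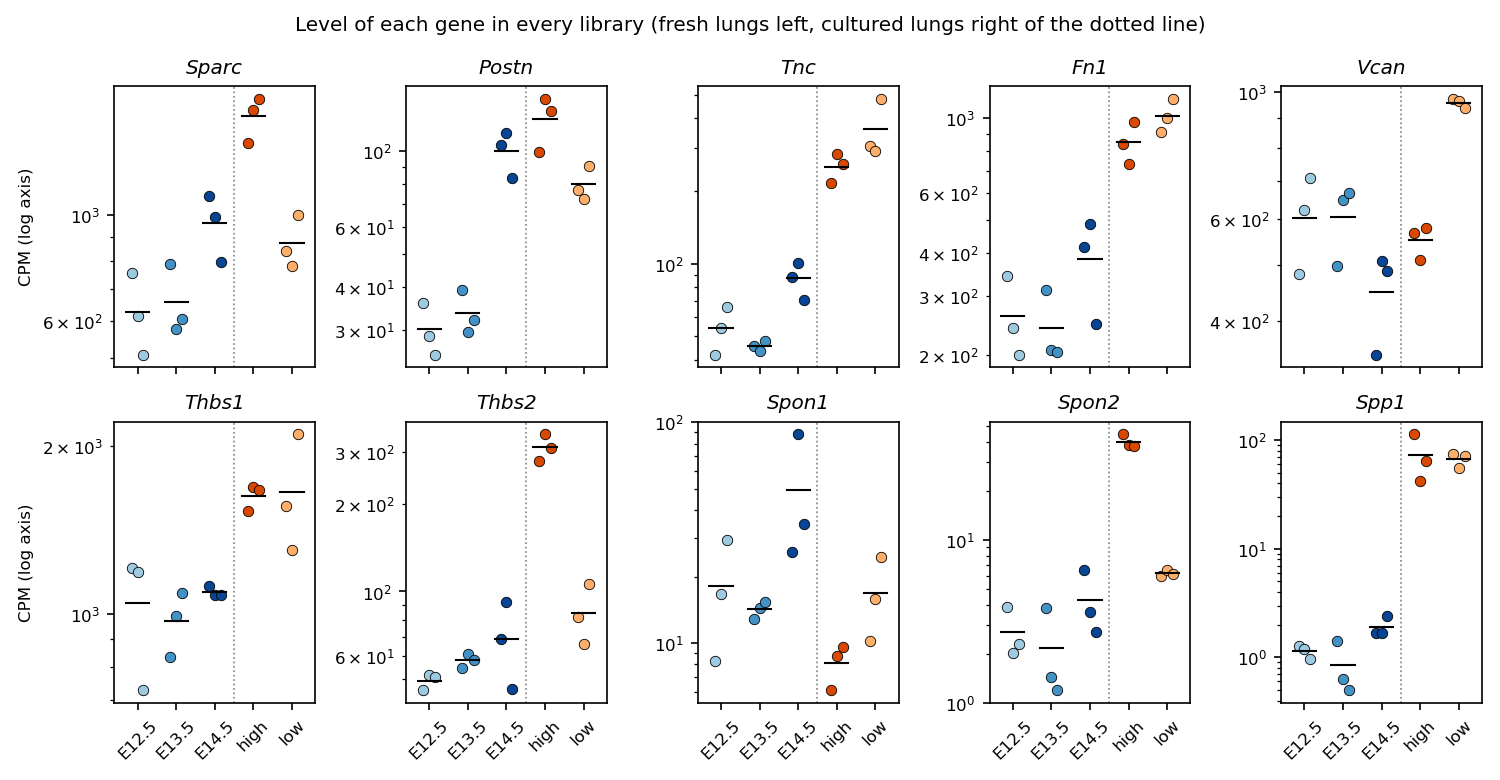
CPM of each gene in every library on log axes, scaled over all 15 libraries, with 3 points per group and a bar at the mean. Thbs2 and Spon2 are high at high pressure alone, Postn is high at E14.5 and in culture, and Spp1 is above 40 CPM in each cultured library and below 3 CPM in each fresh one.

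The first question of the design was how explants of the same age differ between the pressures. Of the 10 genes, 6 changed between high and low pressure. Spon2, Thbs2, Sparc and Postn rose at high pressure, and Vcan and Spon1 fell. The same 6 were called without low replicate 3. This is 6 of 10 genes, 4 higher and 2 lower, where edgeR's quasi-likelihood test called 26.1% of the 14937 genes tested at an adjusted p under 0.05 (Benjamini-Hochberg over all genes), 14.0% higher and 12.2% lower. The median log2 fold change of the 10 genes was 0.06, against 0.01 over all genes.

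Among the spondins, secreted proteins named for F-spondin (Spon1), the 2 genes moved apart. Spon2, also called mindin and known as a ligand of integrins and a binder of microbial surfaces, had 44.8, 38.1 and 37.5 CPM at high pressure, against 5.97, 6.51 and 6.17 CPM at low pressure. No high-pressure library came near a low-pressure one. The log2 fold change was 2.69 (SE 0.13, adjusted p = 7.86e-05 by edgeR), the largest of the 10. Spon1, known from axon guidance, had 6.16, 8.75 and 9.55 CPM at high pressure, against 10.2, 15.8 and 24.4 CPM at low pressure. The groups did not overlap, though the low-pressure libraries spread widely. Spon1 fell at high pressure (log2 fold change -1.04, SE 0.31, adjusted p = 0.0394 by edgeR). Its call was lost without low replicate 2 and without any 1 of the 3 high replicates (adjusted p of 0.0725 to 0.135, edgeR), and with offsets for GC content and length (0.0606). Without low replicate 3 it kept its call with a smaller fall, -0.68 (adjusted p = 0.037, edgeR).

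The thrombospondins, trimeric (Thbs1, Thbs2) glycoproteins that inhibit blood vessel growth through CD36, also differed from each other. Thbs2 had 281, 346 and 310 CPM at high pressure, against 81.7, 66.0 and 106 CPM at low pressure. Every high-pressure value was above every low-pressure value. The log2 fold change was 1.89 (SE 0.17, adjusted p = 0.000551 by edgeR). Thbs1, which is also known to activate latent TGF-beta, had 1540, 1700 and 1670 CPM at high pressure, against 1560, 1300 and 2100 CPM at low pressure. The high-pressure libraries lay inside the low-pressure range, and the log2 fold change was -0.01 (SE 0.16, adjusted p = 0.958 by edgeR). Its sign changed with the replicate left out, with values of -0.16 to 0.19.

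Within a library, the ratio of 2 genes' counts does not depend on scaling. Thbs2 over Thbs1 was 0.190 ± 0.0119 at high pressure and 0.0511 ± 0.00114 at low pressure (SD, n = 3 each). Spon2 over Spon1 was 5.18 ± 1.82 at high pressure and 0.416 ± 0.166 at low pressure. The ratio was above 1 only in the high-pressure libraries, where the lowest was 3.93, while the highest low-pressure value was 0.585 and the highest fresh value 0.463. Thbs2 over Thbs1 reached at most 0.0851 in fresh lungs, at E14.5. These ratios restate the single-gene differences and carry no test of their own.

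**Figure D2:**
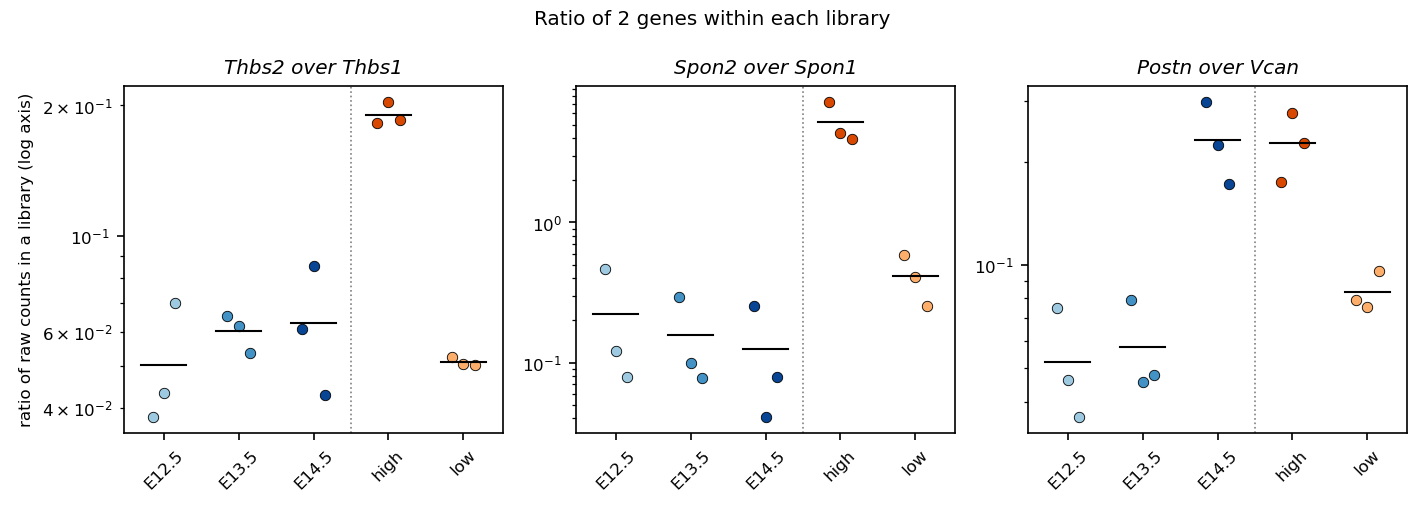
Ratio of raw counts of 2 genes within each library, on log axes, with 3 points per group and a bar at the mean. Thbs2 over Thbs1 and Spon2 over Spon1 are highest in the 3 high-pressure libraries, and Postn over Vcan is similar in range at E14.5 (0.172 to 0.299) and at high pressure (0.174 to 0.278).

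Sparc and Postn, collagen-binding proteins with roles in collagen fibril assembly, rose at high pressure. Sparc had 1430, 1670 and 1750 CPM at high pressure, against 844, 785 and 1000 CPM at low pressure. The groups did not overlap, and the log2 fold change was 0.88 (SE 0.13, adjusted p = 0.00229 by edgeR). Postn had 100, 142 and 131 CPM at high pressure, against 77.1, 72.5 and 90.1 CPM at low pressure. The gap between the groups was narrow, and the log2 fold change was 0.64 (SE 0.14, adjusted p = 0.0141 by edgeR). Postn lost its call without high replicate 2 (adjusted p = 0.0669, edgeR) or high replicate 3 (0.0674), and its fold change rose to 1.02 with offsets for GC content and length. Postn and Spon1 also missed the threshold when all 15 libraries shared 1 estimate of the spread (adjusted p of 0.0534 and 0.203, edgeR).

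Of the provisional matrix pair, Vcan fell and Fn1 did not pass the test. Vcan, the large chondroitin sulphate proteoglycan that binds hyaluronan, had 574, 510 and 578 CPM at high pressure, against 974, 964 and 937 CPM at low pressure. The replicates were tight and the groups far apart. Vcan fell at high pressure, at -0.79 on the log2 scale (SE 0.09, adjusted p = 0.00106 by edgeR). With offsets for GC content and length it was at -0.50. Fn1, the fibrillar glycoprotein that integrins assemble into the first matrix, had 845, 736 and 972 CPM at high pressure, against 908, 1010 and 1140 CPM at low pressure. These ranges overlapped (log2 fold change -0.26, SE 0.13, adjusted p = 0.175 by edgeR). Fn1 shares 292 bases of exon with Apol7d, annotated on the opposite strand. Nothing in the labels says that counting used strand, and reads of the 2 genes may be mixed.

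Tnc and Spp1 were the other 2 that edgeR did not call. Tnc, a hexameric glycoprotein of branching and remodelling tissue, had 217, 285 and 257 CPM at high pressure, against 308, 295 and 482 CPM at low pressure. All 3 high-pressure libraries were lower (log2 fold change -0.51, SE 0.19, adjusted p = 0.0835 by edgeR), and DESeq2 placed it past the threshold at an adjusted p of 0.0292. Without low replicate 3, its fold change was -0.25. Spp1, a phosphoprotein ligand of integrins and CD44, had 114, 42.2 and 63.7 CPM at high pressure, against 74.6, 55.9 and 71.9 CPM at low pressure. The high-pressure libraries spread widely, with an SD of 36.9 around a mean of 73.3 CPM, and the groups overlapped (log2 fold change 0.12, SE 0.31, adjusted p = 0.808 by edgeR). Counting values alone, 7 of the 10 genes had groups that did not overlap, 4 higher and 3 lower at high pressure, where 46.8% of all genes tested did so, 25.0% higher and 21.8% lower.

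Markers of several cell types moved with the pressure as well. In bulk lungs, fewer cells of a type and less RNA per cell cannot be told apart. Epithelial markers summed to 1930 to 1970 CPM at high pressure and 1160 to 1290 CPM at low pressure, with 8 of 11 called higher. Endothelial markers summed to 115 to 268 CPM at high pressure and 262 to 425 CPM at low pressure, with 3 of 10 called lower. Mesenchymal markers summed to 9170 to 11600 CPM at high pressure and 7300 to 8230 CPM at low pressure, where 3 of 10 were called higher and 4 lower. Cartilage markers summed to 543 to 691 CPM at high pressure and 852 to 1000 CPM at low pressure, with 2 of 11 tested called higher and 3 lower. In none of these lists was a marker listed at 0 in every library of either pressure. The part of these shifts in the 6 calls was not tested.

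The second question was how the genes change as the fresh lung grows, a series in which the 3 stage comparisons share libraries. Postn, Sparc and Tnc rose between E12.5 and E14.5 and Vcan fell, when same-numbered libraries were treated as a block. The planned main test, edgeR without the block, called 0 of the 10 genes and 0% of the 14242 genes tested. This held for E14.5 against E12.5, E14.5 against E13.5 and E13.5 against E12.5 alike. Genes with an unadjusted p under 0.05 numbered 1328, 977 and 123 in those 3 comparisons, and DESeq2 called 491, 293 and 0. Libraries of the same number deviated together in this series, so values from the fit with the number as a block are given for the stages. That fit was an alternative to the planned main test. A term for replicate 1 alone also called 4 of the 10 genes for E14.5 against E12.5, and 11.2% of all genes. With the block, 4 of the 10 genes were called for E14.5 against E12.5, 3 higher and 1 lower, where 11.0% of all genes were called, 7.33% higher and 3.63% lower. The median log2 fold change of the 10 was 0.64, against 0 over all genes.

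Postn had 36.6, 28.5 and 25.1 CPM at E12.5, then 39.9, 29.0 and 31.5 CPM at E13.5, then 106, 114 and 83.1 CPM at E14.5. Every E14.5 library was above every earlier one. The log2 fold change of E14.5 over E12.5 was 1.76 (SE 0.12, adjusted p = 0.000102 by edgeR with the block). It passed in 9 of 9 fits that left out 1 library, at 1.58 to 1.87, and was 1.88 without replicate 1 of every stage (adjusted p = 0.00198). Without the block its adjusted p was 0.0594 by edgeR. Nearly all of the change fell between E13.5 and E14.5, where the log2 fold change was 1.6 (SE 0.12, adjusted p = 0.000277 with the block), against 0.16 for E13.5 over E12.5. The difference between the 2 daily steps, 1.43 (SE 0.20), did not pass (adjusted p = 0.0687 with the block), where 0.0211% of all genes did. It passed in 3 of 9 blocked fits that left out 1 library, with GC and length offsets beside the block (1.48, adjusted p = 0.0356), and with DESeq2 and the block (1.40, adjusted p = 3.36e-06). Of the other 9 genes none passed by edgeR with the block, and Tnc passed with DESeq2 and the block (1.15, adjusted p = 0.00957).

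Sparc had 767, 608 and 502 CPM at E12.5, then 803, 563 and 594 CPM at E13.5, then 1120, 1000 and 792 CPM at E14.5. The E14.5 libraries lay above all E12.5 libraries, the lowest of them by a small margin. The log2 fold change of E14.5 over E12.5 was 0.64 (SE 0.08, adjusted p = 0.00175 by edgeR with the block), and 9 of 9 fits with the block that left out 1 library called it. Vcan had 489, 617 and 696 CPM at E12.5, then 505, 635 and 657 CPM at E13.5, then 355, 511 and 484 CPM at E14.5. As plain groups the stages overlapped, but within each number E14.5 was the lowest. Vcan was lower at E14.5 than at E12.5 (log2 fold change -0.42, SE 0.07, adjusted p = 0.00483 by edgeR with the block), and 9 of 9 fits with the block that left out 1 library called it.

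Tnc had 42.7, 53.8 and 64.9 CPM at E12.5, then 46.3, 42.7 and 47.0 CPM at E13.5, then 89.8, 102 and 70.7 CPM at E14.5. The E14.5 libraries were above all others, but the replicate 3 pair differed by only 0.12 on the log2 scale, against 1.07 and 0.92 in the pairs numbered 1 and 2. The log2 fold change of E14.5 over E12.5 was 0.71 (SE 0.18, adjusted p = 0.0442 by edgeR with the block). Only 2 of the 9 fits with the block that left out 1 library called it, those without E12.5 replicate 3 (adjusted p = 0.00643) and without E14.5 replicate 3 (0.00685). In the other 7 it missed the threshold, for example without E12.5 replicate 1 (0.0766), and it also missed it without replicate 1 of every stage (0.109).

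**Figure D3:**
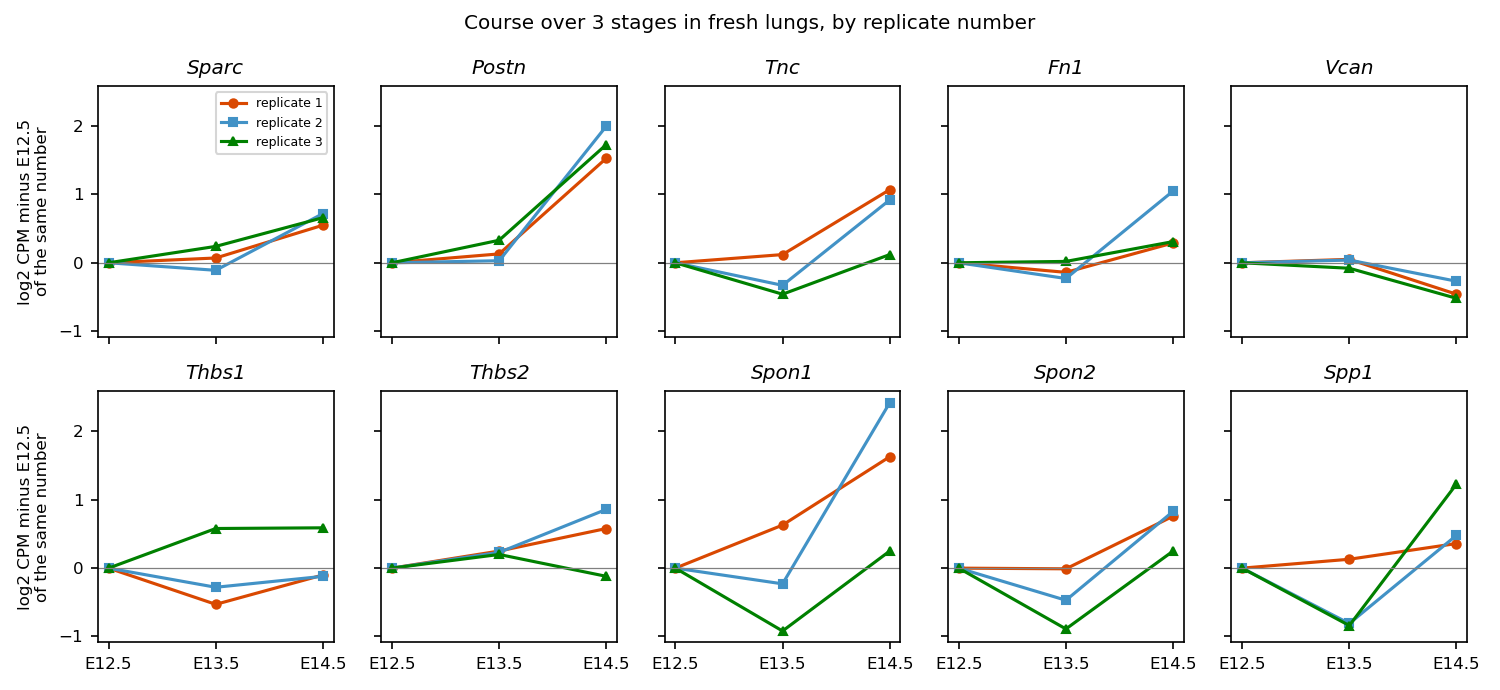
Log2 CPM of each fresh library minus that of the E12.5 library with the same replicate number, at 3 stages, 1 line per number. Postn is at 1.53 to 2 at E14.5 in all 3 numbers, Vcan is below 0 in all 3, and Spon1 runs from 0.25 to 2.42.

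The other 6 genes did not pass for E14.5 against E12.5. As plain groups, 4 of the 10 genes (Postn, Tnc, Sparc and Spp1) were higher in all E14.5 than in all E12.5 libraries and 0 were lower in all, where 14.1% of all genes did not overlap, 8.76% higher and 5.33% lower. Spon1 had 8.43, 16.6 and 28.8 CPM at E12.5, then 13.1, 14.1 and 15.1 CPM at E13.5, then 26.3, 88.9 and 34.3 CPM at E14.5. The E14.5 replicate 2 library stood far above the rest. Its log2 fold change over E12.5 was 1.44 (SE 0.53, adjusted p = 0.172 by edgeR with the block), and 0.83 without E14.5 replicate 2. Fn1 had 347, 238 and 198 CPM at E12.5, then 316, 203 and 200 CPM at E13.5, then 423, 492 and 245 CPM at E14.5. It too was highest in E14.5 replicate 2 (log2 fold change 0.57, SE 0.20, adjusted p = 0.128 by edgeR with the block, and 0.26 without that library). Thbs2 had 46.6, 51.1 and 50 CPM at E12.5, then 55.5, 60.1 and 57.3 CPM at E13.5, then 69.6, 92.5 and 46.2 CPM at E14.5. Its range at E14.5 enclosed the earlier stages, and its fold change of 0.46 (SE 0.18, adjusted p = 0.143) was 0.23 without E14.5 replicate 2. It was 0.71 and past the threshold without E14.5 replicate 3 (adjusted p = 0.00803, edgeR with the block), and DESeq2 with the block also called it (0.43, adjusted p = 0.0451).

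Thbs1 stayed between 717 and 1220 CPM in the 9 fresh libraries, and E14.5 over E12.5 was 0.10 on the log2 scale (SE 0.21, adjusted p = 0.795 by edgeR with the block). Spon2 and Spp1 were the 2 lowest genes in fresh lungs. Spon2 had 3.90, 1.99 and 2.26 CPM at E12.5, then 3.88, 1.41 and 1.17 CPM at E13.5, then 6.66, 3.62 and 2.70 CPM at E14.5. Spp1 had 1.30, 1.17 and 0.952 CPM at E12.5, then 1.43, 0.626 and 0.489 CPM at E13.5, then 1.70, 1.68 and 2.38 CPM at E14.5. Those Spp1 levels rest on 10 to 44 counts per library. For E14.5 over E12.5 the log2 fold changes were 0.64 for Spon2 and 0.76 for Spp1 (SE 0.24 and 0.38, adjusted p = 0.107 and 0.214 by edgeR with the block). Without E14.5 replicate 3, Spp1 was at 0.37 (adjusted p = 0.67).

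By single days, E14.5 against E13.5 called 5 of the 10 genes with the block, where 6.01% of all genes were called, 4.15% higher and 1.86% lower. Postn, Tnc (log2 fold change 0.94, adjusted p = 0.0268), Sparc (0.57, 0.00505) and Spon2 (1.07, 0.0291) rose, and Vcan fell by 0.42 (0.00826). Postn and Sparc were called in 9 of 9 fits with the block that left out 1 library, Vcan in 7, Tnc in 3 and Spon2 in 2. Without the block, leaving out 1 library called 0 of the 10 genes. Without replicate 1 of every stage, Postn alone passed (1.71, adjusted p = 0.0066 by edgeR). For E13.5 against E12.5, 0 of the 10 genes were called with the block, and 0.00702% of all genes were, which is 1 gene.

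Heart and striated muscle markers moved with the stages. They summed to 1170, 2860 and 703 CPM in E14.5 replicates 1, 2 and 3, against 97.2, 50 and 16.1 CPM at E12.5, and 7 of 10 were called higher with the block. None of the 10 was listed at 0 throughout a group. The library with the highest sum, E14.5 replicate 2, was also the highest of the fresh lungs for Postn, Fn1, Thbs2, Spon1 and Tnc. Endothelial markers summed to 821 to 1080 CPM at E14.5 and 518 to 774 CPM at E12.5, with 7 of 10 called higher. Red cell markers summed to 515 to 1380 CPM at E14.5 and 2720 to 3280 CPM at E12.5, and Hba-a1 and Hba-a2 were listed at 0 in every library. Without E14.5 replicate 2 and with the block, E14.5 over E12.5 was 1.58 for Postn, 0.54 for Sparc and -0.50 for Vcan, but the other E14.5 libraries also had heart marker sums far above those of E12.5. The part of these shifts in the stage results was not tested.

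**Figure D4:**
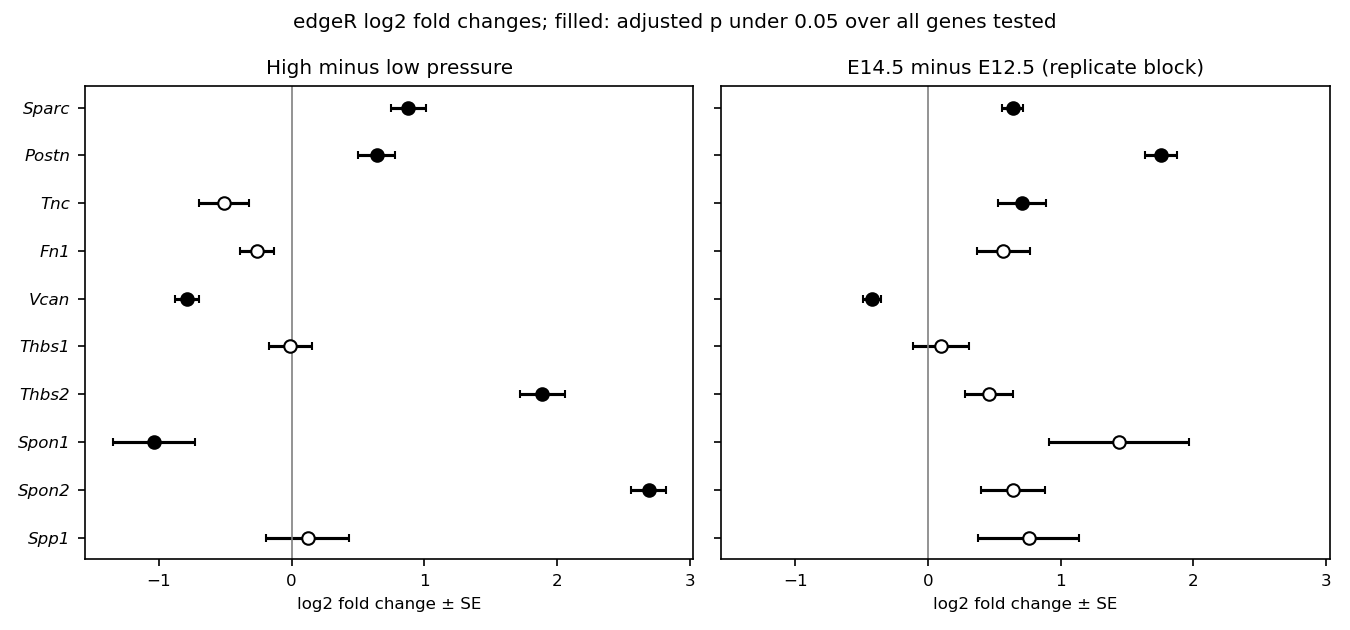
The edgeR log2 fold changes with SE for high minus low pressure (left) and E14.5 minus E12.5 with the replicate block (right), where filled points passed an adjusted p under 0.05 over all genes tested. Sparc, Postn and Vcan are filled on the same side of 0 in both panels, and Spon1, Tnc, Fn1 and, close to 0, Thbs1 lie on opposite sides.

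The pressure difference and the 2-day stage change were then set against each other in 1 model of all 15 libraries, as high minus low less E14.5 minus E12.5. The 2 changes share no library. The planned main test, edgeR without the block, called 0 of the 10 genes, where 0.723% of 14940 genes were called. In it, 6 of the 10 had an unadjusted p under 0.05, as did 1865 of the 14940 genes. DESeq2 without the block called 5 of the 10, and 667 genes in all (4.46%). With the block, 7 of the 10 differed, 2 higher and 5 lower, where 18.2% of all genes did, 8.67% higher and 9.52% lower. Spon2 (difference 2.06, SE 0.24, adjusted p = 0.000412) and Thbs2 (1.44, SE 0.26, adjusted p = 0.00314) had larger fold changes for high over low pressure than for E14.5 over E12.5. For Postn the difference was -1.11 (SE 0.20, adjusted p = 0.00312), so its rise at high pressure was smaller than its rise from E12.5 to E14.5.

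Spon1 and Tnc differed the other way. Spon1 had the largest difference, -2.48 (SE 0.56, adjusted p = 0.0103 by edgeR with the block), with the pressure and stage values on opposite sides of 0. For Tnc the difference was -1.21 (SE 0.28, adjusted p = 0.0114), also between values of opposite sign. Fn1 (-0.82, adjusted p = 0.0252) and Vcan (-0.36, 0.0326) passed less firmly, in 10 and 8 of the 15 fits with the block that left out 1 library. With offsets for GC content and length beside the block, Vcan was at -0.03 (adjusted p = 0.864) and Postn at -0.64 (0.0524). Sparc (0.25, adjusted p = 0.279), Thbs1 (-0.11, 0.812) and Spp1 (-0.62, 0.469) did not pass.

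Levels in culture were also set beside those of the fresh lungs, on CPM scaled over all 15 libraries. Cultured and fresh libraries come from separate tables with different depths, so these ratios are descriptions and carry no test. Spp1 stood out, with means of 73.0 CPM at high pressure and 67.4 CPM at low pressure, against 1.14 CPM at E12.5, which is 63.8 and 58.9 times. Its lowest cultured library was 17.6 times its highest fresh library. Macrophage and leukocyte markers, which include cells known to express Spp1, summed to 266 to 383 CPM at high pressure and 255 to 308 CPM at low pressure. Over the fresh libraries they summed to 82.7 to 185 CPM. These sums were scaled within each table and not over all 15 libraries. The part of these cells in the Spp1 levels was not tested.

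Tnc, Fn1 and Thbs1 were also above every fresh library in culture at both pressures, Thbs1 by the narrowest margin, with its lowest cultured library at 1.08 times its highest fresh one. Tnc was 4.66 times its E12.5 mean at high pressure and 6.68 times at low pressure, and Fn1 3.25 and 3.90 times. Thbs1 was 1.57 times its E12.5 mean at high pressure and 1.59 times at low pressure, and Sparc 2.58 and 1.4 times. Spon2 and Thbs2 stood apart at high pressure, at 14.7 and 6.30 times their E12.5 means, against 2.29 and 1.71 times at low pressure. Postn was 4.12 times its E12.5 mean at high pressure and 2.66 times at low pressure. Vcan was 0.914 times its E12.5 mean at high pressure and 1.59 times at low pressure. Spon1 was 0.449 times at high pressure and 0.928 times at low pressure, and it was the only one of the 10 whose low-pressure libraries overlapped those of E12.5.

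The genes fell into different patterns across the 15 libraries, measured as Pearson's r of log2 CPM after centring each table on its own mean. The libraries share tables, stages and pressures, so r describes likeness and carries no p. Sparc and Vcan ran opposite (r = -0.942), as did Spon2 and Vcan (-0.938). Sparc ran with Spon2 (0.885), Postn (0.828) and Thbs2 (0.799). In each fresh stage replicate 1, with its larger ribosomal protein share, had the highest Sparc and Spon2 and the lowest Vcan. The high-pressure libraries, also with the larger share, stood to the low-pressure ones in the same way. The part of these library differences in r was not tested. Tnc and Spon1 ran together (0.906), at 0.907 within fresh and 0.913 within cultured libraries. Thbs1 had no r above 0.4 with any other of the 10.

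Among 10121 or 10122 expressed genes, the pattern most like Sparc was that of Col1a1, a chain of type I collagen (r = 0.98), followed by Ccdc80 (0.968) and Bcam (0.966). Most like Vcan were Unc5c (0.978), a netrin receptor, Lef1 (0.971), a WNT-responsive transcription factor, and Atp7a (0.97), a copper transporter. Most like Postn were Ptrf (0.96), a coat protein of caveolae, Fhl1 (0.951) and Sspn (0.951). For Spon2 they were Limch1 (0.954), Lrrfip1 (0.953) and Capn5 (0.952), and for Thbs2 Abca7 (0.943), Lgi3 (0.938) and Exoc8 (0.92). The 3 likenesses of Thbs2 were lower within the fresh libraries (0.744, 0.697 and 0.567) than within the cultured ones (0.971, 0.982 and 0.97). Postn with Sspn was at 0.973 within fresh and 0.761 within cultured libraries.

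Fn1 was most like Fbln2 (0.915), a fibulin of the matrix, Aldoa (0.885) and Pde4a (0.882). Spon1 was most like Ryr2 (0.927), the calcium release channel of heart muscle, with Tnc second and Snap91 (0.9) next. After Spon1, Tnc was most like Cpe (0.845) and Fgf13 (0.838). The weakest leading likenesses were those of Thbs1 to Pamr1 (0.815), Ocln (0.803) and Jdp2 (0.783), and of Spp1 to Syk (0.808), Pon2 (0.763) and Traf3ip2 (0.744). Some of these were lower within the 6 cultured libraries than within the 9 fresh ones. Fn1 with Pde4a was at 0.47 within cultured and 0.966 within fresh libraries, and Fn1 with Aldoa at 0.741 and 0.903. Spp1 with Pon2 was at 0.49 within cultured and 0.846 within fresh libraries, and Thbs1 with Ocln at 0.67 and 0.88. Spon1 with Ryr2 was at 0.785 within cultured and 0.969 within fresh libraries, and Spon1 with Snap91 at 0.796 and 0.93.

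Partner genes were taken from 4 lists, also drawn up with earlier results of these data known. Of 46 other matricellular and related matrix genes tested at high against low pressure, 10 rose (21.7%), 3 fell (6.52%) and 33 did not pass, with a median log2 fold change of 0.09, against 0.01 over all genes. Over all genes tested, 14.0% were higher and 12.2% lower, which is the background for the shares of the 4 lists. Mgp, the matrix inhibitor of calcification (1.61), Bgn, the proteoglycan biglycan (1.08), and Fbln1, the matrix fibulin 1 (0.87), rose. Wisp1, a CCN family protein (-1.16), Spock1, a testican (-1.92), and Egflam, the dystroglycan ligand pikachurin (-0.64), fell.

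Of 24 enzymes that assemble or process matrix, 9 rose at high pressure (37.5%), 5 fell (20.8%) and 10 did not pass (median 0.36). Tgm2, a transglutaminase that crosslinks fibronectin (1.46), Htra1, a secreted serine protease (1.45), Pcolce, an enhancer of procollagen processing (1.27), and Plod3, a lysyl hydroxylase (0.62), rose. The plasminogen activators Plat (-0.85) and Plau (-0.84) fell, as did Plod2 (-0.95), Loxl2 (-0.65) and Tll1 (-0.82). Of 23 cell surface receptors for these proteins, 4 rose (17.4%), 4 fell (17.4%) and 15 did not pass (median -0.14), shares near those of all genes. Itga3 (0.98), an integrin chain of epithelia, and Sdc4 (0.89), a syndecan that binds fibronectin, rose. Itga8 (-0.97), a mesenchymal integrin chain that binds Spp1, Tnc and Fn1, and Cacna2d1 (-0.82), a thrombospondin receptor, fell.

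Of 17 hyaluronan and versican partners, 2 rose at high pressure (11.8%), 3 fell (17.6%) and 12 did not pass (median -0.17), again near the shares of all genes. Has2, the main hyaluronan synthase of embryos, fell by 1.1 on the log2 scale, beside the fall of Vcan. Of the versican-cleaving proteases, Adamts5 rose (1.53), and Adamts20 (-1.51) and Adamts9 (-0.31) fell. The hyaluronidase gene Hyal1 rose (0.81). The adjusted p of these 5 genes ranged from 0.000649 for Has2 to 0.0415 for Adamts9 by edgeR.

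**Figure D5:**
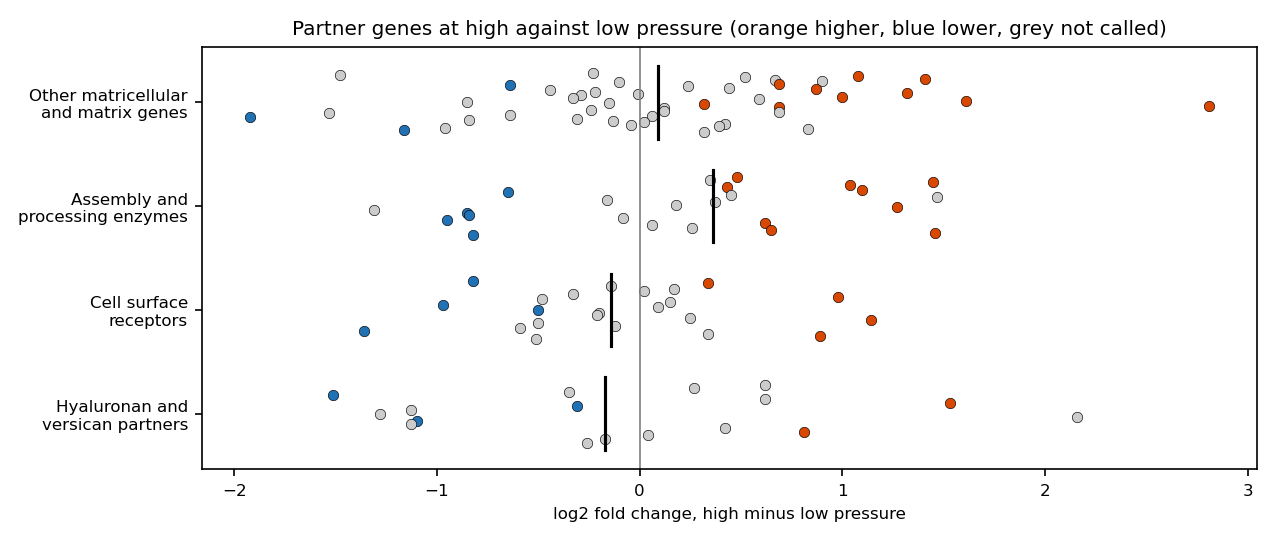
Log2 fold change of each partner gene at high minus low pressure, 1 point per gene, with a bar at each list's median. Called genes lie on both sides of 0 in all 4 lists, and the medians are 0.09, 0.36, -0.14 and -0.17 from top to bottom.

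From E12.5 to E14.5, 13 of 43 other matricellular genes rose with the block (30.2%), 3 fell (6.98%) and 27 did not pass, where 7.33% of all genes rose and 3.63% fell, with a median log2 fold change of 0.43, against 0 over all genes. Npnt, an integrin ligand of basement membranes (0.66), Nov, a CCN family protein (2.11), Bgn (0.63) and Fbln5, an elastic fibre fibulin (1.24), rose. The R-spondins Rspo2 (-0.72) and Rspo1 (-0.70) and the testican Spock3 (-1.31) fell. Bgn therefore passed in both comparisons on the same side.

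Of the other 3 lists no gene fell from E12.5 to E14.5 by edgeR with the block. Among receptors 7 of 23 rose (30.4%), led by the hyaluronan and Spp1 receptor Cd44 (0.93), Ptprb (0.88), the thrombospondin receptor Cd36 (2.25) and Itgb6 (1.46). Among enzymes 5 of 24 rose (20.8%), led by the crosslinking enzyme Lox (0.86), Htra1 (1.92), Loxl1 (0.67) and Plod2 (0.33). Among hyaluronan and versican partners 5 of 16 rose (31.2%), led by Adamts9 (0.45), Hapln1 (0.65), Has3 (1.73) and Has2 (0.44). Their medians were 0.15, 0.21 and 0.14, against 0 over all genes. Has2, Adamts9 and Plod2 were thus higher at E14.5 than at E12.5 and lower at high than at low pressure. Endothelial and heart markers also rose over these stages, each with 7 of 10 called higher, and their part in these lists was not tested.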

How the data were processed

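Per the submitters' processing notes, cutadapt 1.6, TopHat, Bowtie 1.1.1, HTSeq and DESeq2 were used, with the mm10 build. Which annotation was counted, and whether by strand, is not given in the sources used here. The authors deposited raw counts per gene for fresh and cultured lungs as 2 tables, normalised counts (a signal, each count divided by 1 factor per library), and log2 values of these. Only raw counts were tested. Samples were grouped by title. Members and lists were chosen with earlier results of these data known.

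Genes passing filterByExpr were fitted in R 4.3.3 with edgeR 4.0.16 (TMM factors, robust quasi-likelihood test, Benjamini-Hochberg over all genes, threshold 0.05), and with DESeq2 1.42.0 as an alternative. The scripts were tested on simulated data. Fold changes are log2 of the fitted ratio. CPM uses library totals scaled by TMM factors. All 10 members were named, and from each list at most the 4 genes with the smallest p plus those that moved the other way. Likeness used log2 CPM with a prior count of 2 over genes averaging at least 5 CPM in both tables. The 15 lists include 11 of cell type markers, of which those not described showed these counts at high against low pressure: airway smooth muscle 2 higher and 1 lower of 9, heart 0 of 9, macrophage 2 and 1 of 13, mesothelium 2 and 1 of 7, neuron 0 and 1 of 9, pericyte 0 and 2 of 6, and red cell 0 and 1 of 7.

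Replicate numbers are from the titles. In fresh lungs all 9 same-number pairs of libraries deviated together from their group means (r of 0.399 to 0.839, against -0.736 to 0.626 in the 18 other pairs), so the numbers were taken to pair the samples. Of the 18 other pairs, 6 also had r above 0.1. Replicate 1 lay farthest from the rest of its group (chi-square per gene of 106 to 174, against 7.18 to 18.1 between replicates 2 and 3). Pairing by all 3 numbers and a shift of replicate 1 alone therefore cannot be told apart by these r. What the number marks is not given in the labels. In cultured lungs the 3 same-number pairs had r of -0.0124 to 0.0461. For every comparison the planned main test had no block, and the block was an alternative. Stage and pressure-minus-stage values given with the block are therefore from that alternative. In the model of all 15 libraries, the block covered the fresh libraries only. Positions are GENCODE and RefSeq annotation of mm10 (GRCm38). With 3 libraries per group, precision rests on the spread between pools more than on depth. No 2 libraries of a group agreed within sampling noise.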

Additional observations from a re-analysis of the deposited data

How the results depend on the processing

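For high against low pressure, 5 of 10 genes were called with GC and length offsets (3105 genes in all) and 4 with all 15 libraries in 1 fit (1121 genes in all). Without 1 library, 4 to 6 were called (1894 to 6257 genes in all). The directions of the 6 called genes held in these alternatives. In cultured lungs, where numbers did not pair samples, the replicate block called 6 genes (3137 in all) and moved Thbs1 to 0.01.

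For the stages and their contrast with pressure, the replicate block changed the calls. Numbers are given for E14.5 against E13.5, E14.5 against E12.5 and pressure minus stage, in that order. Without the block edgeR called 0 of the 10 genes, and 0, 0 and 108 genes in all. The replicate block gave 5, 4 and 7 (856, 1561 and 2718 in all), and a term for replicate 1 alone also 5, 4 and 7 (808, 1592 and 2965). DESeq2 gave 2, 1 and 5 (293, 491 and 667), and with the block 6, 5 and 7 (1150, 1819 and 3456). GC and length offsets gave 0, 0 and 2 (0, 2 and 243), and with the block 5, 3 and 5 (1065, 2037 and 2031). Without replicate 1 of every stage, the 2 stage counts were 1 and 3 (62 and 1119 in all), and with no filter on low counts E14.5 against E12.5 had 1 (9 in all). Leaving out 1 library without the block gave 0, 0 and 0 to 2, with 0%, at most 0.0208% and at most 1.85% of all genes called. With the block it gave 2 to 5, 3 to 5 and 5 to 7, at 0.532% to 8.99%, 3.01% to 13.7% and 8.23% to 28.8% of all genes. For the difference between daily steps, leaving out 1 library gave 0 to 1 (at most 0.215% of all genes), GC and length offsets with the block 1 (5 genes in all), and DESeq2 with the block 2 (50 in all). The cause of these moves was not tested, beyond fewer samples in the leave-outs.

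The sign of these values turned in some alternatives. Vcan at E13.5 against E12.5 was 0.00 with the block, with the term for replicate 1 and with DESeq2 and the block, and Thbs1 was 0.10 without replicate 1 of every stage. Without 1 library, E13.5 against E12.5 ranged from -0.37 to 0.14 for Fn1, -0.36 to 0.08 for Thbs1, -1.07 to 0.02 for Spon2, -0.13 to 0.11 for Vcan, -0.11 to 0.24 for Sparc and -0.68 to 0.37 for Spon1. Likewise Thbs2 for E14.5 against E13.5 was -0.02 to 0.49, Thbs1 for E14.5 against E12.5 was -0.15 to 0.27 and for pressure minus stage -0.28 to 0.15. For high against low pressure Thbs1 was -0.16 to 0.19 and Spp1 -0.35 to 0.40. Depth was lowest for Spp1 and Spon2 in fresh lungs, with 10 to 44 and 24 to 133 counts per library, and the part of counting error in their results was not tested.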
